A study of Mus musculus with 6 samples.

Results

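The PARP enzymes (poly-ADP-ribose polymerases) use NAD+ to attach ADP-ribose to proteins. Most of the family attach single ADP-ribose units, whereas PARP1, the founding member, builds chains of them at DNA breaks. Interferon, which macrophages and microglia secrete when lipopolysaccharide (LPS) is sensed through Toll-like receptor 4, switches on a subset of the family. That subset includes PARP9, which pairs with the ubiquitin ligase DTX3L, the mono-ADP-ribosyltransferases PARP10, PARP11 and PARP12, and PARP14, which carries macrodomains that bind ADP-ribose and was described as a cofactor of STAT6. The genes described here are Parp9, Dtx3l, Parp14, Parp10, Parp12 and Parp11, with Parp1 as a relative that interferon is not known to induce. They were chosen by name, with earlier results of these data known, so counts among them are a description. All 7 were among the 24340 genes of the deposited table and among the 11412 genes tested.

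The RNA came from cultures of primary microglia, the macrophages that live in the brain, taken from newborn C57BL/6 mice, and its poly-A fraction was sequenced. In the C13 group (3 libraries) the cells received 10 uM C13 (also AG2P145D), which the series title calls an inhibitor of the kinase MOK, for 1 h, and then 1 ug/ml LPS for 5 h. In the vehicle group (3 libraries) they received DMSO for 1 h and the same LPS. Every library had received LPS, so the data hold the LPS state with and without C13, and the induction of these genes by LPS or interferon cannot be read from them. The labels call the samples biological replicates but do not say which cultures or litters they came from, so a p-value reflects only how far these samples scatter, which may be technical.

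The table gives FPKM, fragments normalised to transcript length and to the library's mapped fragments, without read totals. The smallest steps between low values put the depth at about 8920000 to 11570000 fragments per library, at which Parp1 would rest on about 403 fragments and Parp14 on about 9818 in the library where each had fewest. Vehicle replicate 2 stood apart from the other libraries, with an FPKM sum of 634451 against 504674 to 534757 and a median correlation with the others of 0.969 against 0.984 to 0.989. The 12 microglial markers checked were all present, with summed levels of 1844 to 1947 FPKM in C13 libraries and 1905 to 2529 FPKM in vehicle libraries. Tyrobp and C1qa had the highest means, 622 and 642 FPKM with C13 and 706 and 759 FPKM with vehicle. However, P2ry12, which marks resting microglia, had no more than 2.00 FPKM in C13 libraries and 3.18 FPKM in vehicle libraries. Cx3cr1 had no more than 2.59 FPKM with C13 and 3.21 FPKM with vehicle, and Tmem119 no more than 6.94 and 6.73 FPKM. Fibroblast markers were abundant too, 5 of 5 of them, with sums of 3677 to 4248 FPKM with C13 and 3909 to 4210 FPKM with vehicle. In such bulk RNA fewer cells of a type and less RNA per cell cannot be told apart.

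On the mouse assembly GRCm38 (mm10 at UCSC) the genes lie on 4 chromosomes, and GENCODE annotates all of them as protein-coding. Parp9 (chromosome 16, 35938470 to 35972605, plus strand) and Dtx3l (chromosome 16, 35926511 to 35939151, minus strand) start head to head and overlap by 682 bases, and the table gives both rows the same locus. Parp14 (35832874 to 35871544, minus strand) lies 54966 bases away on chromosome 16. Parp12 (39086410 to 39118349, minus strand) and Parp11 (127446840 to 127494261, plus strand) are both on chromosome 6, Parp10 (76231174 to 76243441, minus strand) is on chromosome 15, and Parp1 (180568924 to 180601254, plus strand) is on chromosome 1. The table lists Mir6904 at the locus of Parp1, at the lowest value of the table in every library.

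RefSeq start-site windows of 300 bases (250 before and 50 after the annotated start, GRCm38.p6) were at hand for 4 members, 5 windows in all, namely Dtx3l, Parp1, Parp12 and 2 starts of Parp11. Parp9, Parp10 and Parp14 had no entry. The windows were searched on both strands for GAAA, any 2 bases and GAAA again, the core of the interferon-stimulated response element (ISRE), and for TTCNNNGAA, the gamma-activated site (GAS). The upstream Parp11 window held 1 match of each, while the other 4 windows held none. The ISRE match reads GAAATCGAAA on the opposite strand, lies 44 to 35 bases before the start, and overlaps the GAS match TTCTTGGAA, which lies 37 to 29 bases before the start. Among all 32851 RefSeq windows 3.44% held the ISRE letters and 8.30% the GAS letters. The 2 Parp11 windows are shown because they differ in these letters, and the Dtx3l window because it lies inside the annotated Parp9 gene, on the other strand. Capitals mark the overlapping ISRE and GAS letters.
Parp11, upstream start, chr6:127446590-127446889, plus strand: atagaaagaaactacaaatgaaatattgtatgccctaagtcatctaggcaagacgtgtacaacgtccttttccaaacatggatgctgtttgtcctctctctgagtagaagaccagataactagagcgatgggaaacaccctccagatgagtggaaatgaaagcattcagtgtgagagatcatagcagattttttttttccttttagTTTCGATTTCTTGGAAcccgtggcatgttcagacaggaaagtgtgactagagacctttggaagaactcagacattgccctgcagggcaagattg
Parp11, downstream start, chr6:127453377-127453676, plus strand: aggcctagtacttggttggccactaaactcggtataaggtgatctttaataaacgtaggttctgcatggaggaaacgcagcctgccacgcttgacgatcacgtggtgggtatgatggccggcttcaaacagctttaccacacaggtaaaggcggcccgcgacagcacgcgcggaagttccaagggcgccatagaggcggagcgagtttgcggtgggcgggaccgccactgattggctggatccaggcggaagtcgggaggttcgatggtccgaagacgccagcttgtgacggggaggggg
Dtx3l, chr16:35938978-35939277, minus strand: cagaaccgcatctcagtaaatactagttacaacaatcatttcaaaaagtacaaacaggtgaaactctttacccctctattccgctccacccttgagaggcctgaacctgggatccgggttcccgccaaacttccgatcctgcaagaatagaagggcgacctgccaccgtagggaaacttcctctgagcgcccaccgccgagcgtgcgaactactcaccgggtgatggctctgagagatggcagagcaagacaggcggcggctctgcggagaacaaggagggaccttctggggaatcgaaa
The authors' Parp11 locus starts 96 bases after the downstream start and 6883 bases after the upstream one, so it begins nearer to the downstream start, and whether the upstream transcript entered the Parp11 value is not given in the sources used here. A match of letters is a description of the window and shows neither binding nor use of a start.

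In these LPS-exposed cultures the interferon-induced members were abundant, though bulk RNA does not show which cells carried their transcripts. Their levels with C13 were mostly somewhat below those with vehicle, but no difference passed the test, so a decrease is not established. Mean levels ran from 42.2 FPKM for Parp11 to 163 FPKM for Parp14 with C13, and from 46.0 FPKM for Parp11 to 166 FPKM for Parp14 with vehicle, against 12.3 FPKM for Parp1 with C13 and 11.9 FPKM with vehicle. By their vehicle means the 6 stood at percentiles 83.8 to 95.3 of the genes tested, and Parp1 at percentile 54.2. With limma 0 of the 7 genes passed the threshold of 0.05 in either direction, where the share of all genes tested that passed was 0.0% lower and 0.0% higher. None of the 7 had an unadjusted p under 0.05 either, against 544 genes (4.77%) on the lower and 293 genes (2.57%) on the higher side. The change was below 0 in 6 of the 7 genes, against 50.1% of all genes tested. However, it turned above 0 for Parp14 and Dtx3l with quantile normalization and for Parp14 with median centring. Rescaling to TPM, which put the median of all genes at 0.13, turned it above 0 for Parp11, Parp14 and Dtx3l. The C13 and vehicle libraries did not overlap in 2 of the 7 genes, Parp9 and Parp10, both lower with C13, against 9.78% of all genes tested, and 0 were higher without overlap, against 6.83%.

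**Figure D1:**
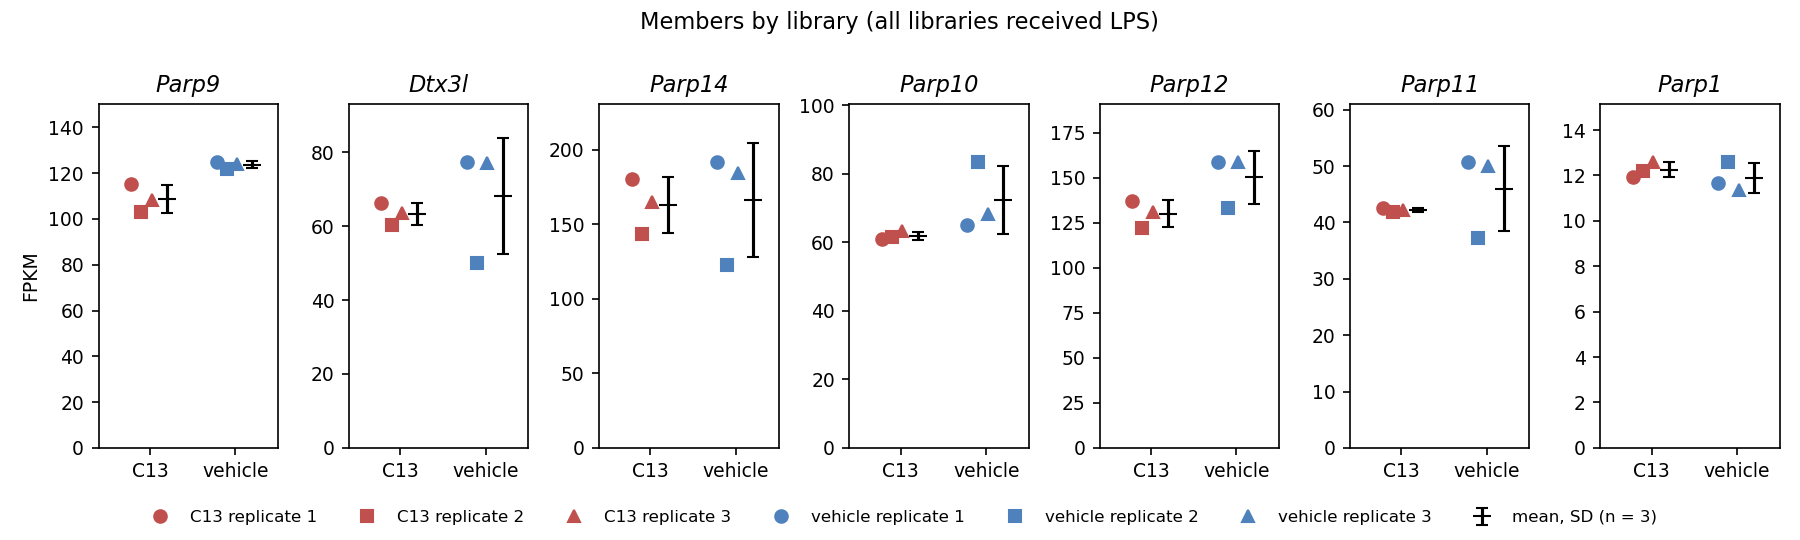
FPKM of each gene in each library, with C13 libraries left of vehicle libraries in every panel, a marker shape for each replicate number, and the mean with its SD (n = 3) beside the points. The C13 libraries lie below all vehicle libraries for Parp9 and Parp10, and vehicle replicate 2 (square) lies below all C13 libraries for Dtx3l, Parp14 and Parp11.

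Parp9 encodes a macrodomain protein that lacks ADP-ribosyltransferase activity on its own and acts with DTX3L. It had 115, 103 and 108 FPKM in C13 replicates 1, 2 and 3, against 125, 122 and 124 FPKM in vehicle replicates 1, 2 and 3. Every C13 library lay below every vehicle library, and the libraries spread more with C13 (CV of 5.56%) than with vehicle (CV of 1.24%). The means were 109 ± 6.05 FPKM with C13 and 124 ± 1.53 FPKM with vehicle (SD, n = 3 each), so that the C13 mean was 88.0% of the vehicle mean. The change in log2(FPKM + 1), the scale of every change given here, was -0.18 (SE 0.079, limma adjusted p = 0.678 over all genes tested).

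Dtx3l, the partner of Parp9 and an E3 ubiquitin ligase of the Deltex family, had 66.2, 60.3 and 63.5 FPKM in C13 replicates 1, 2 and 3 and 77.5, 49.9 and 77.1 FPKM in vehicle replicates 1, 2 and 3. The C13 libraries lay between vehicle replicate 2 and the other 2 vehicle libraries, so the groups overlapped. The means were 63.4 ± 2.95 FPKM with C13 and 68.2 ± 15.8 FPKM with vehicle, and the change was -0.077 (SE 0.171, limma adjusted p = 0.911). Without vehicle replicate 2 it was -0.28 (adjusted p = 0.0609), which also missed the threshold. The ratio of Dtx3l to Parp9 within a library, which does not depend on how the library was scaled, was 0.575, 0.585 and 0.586 with C13 and 0.619, 0.409 and 0.622 with vehicle. Vehicle replicate 2 thus had the lowest ratio and the other 2 vehicle libraries the highest, for 2 genes that overlap at their starts. Whether the authors' counting used strand is not given in the sources used here, so reads from the overlap could have gone to either gene. A low ratio in vehicle replicate 2 was not particular to this pair. The ratio of Parp14 to Parp9, which do not overlap, was 1.57, 1.39 and 1.53 with C13 and 1.54, 1.004 and 1.49 with vehicle. The cause was not tested.

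Parp14 was the most abundant member in 5 of the 6 libraries. It had 180.4, 144 and 165 FPKM in C13 replicates 1, 2 and 3 and 192, 123 and 185 FPKM in vehicle replicates 1, 2 and 3. The lowest value was that of vehicle replicate 2, and the C13 libraries fell between it and the other vehicle libraries. The change was -0.0081 (SE 0.183, limma adjusted p = 0.993) with all 6 libraries and -0.21 (SE 0.091, adjusted p = 0.297) without vehicle replicate 2. Its values spread more than those of the other members with C13 (CV of 11.4%, against 0.902% to 5.76%).

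Parp10, a mono-ADP-ribosyltransferase first found as a partner of MYC, behaved differently in vehicle replicate 2. It had 61.0, 61.5 and 63.2 FPKM in C13 replicates 1, 2 and 3 and 65.0, 83.5 and 68.3 FPKM in vehicle replicates 1, 2 and 3. The groups did not overlap, and vehicle replicate 2 had the highest value, not the lowest. The change was -0.21 (SE 0.108, limma adjusted p = 0.752) with all 6 libraries, and without vehicle replicate 2 it was -0.10 (adjusted p = 0.337), with the C13 mean at 92.9% of the mean of vehicle replicates 1 and 3.

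Parp12 and Parp11 both encode proteins with WWE domains, which bind ADP-ribose chains, and PARP12 also has zinc fingers and is known to restrict several RNA viruses. Parp12 had 137, 122 and 131 FPKM in C13 replicates 1, 2 and 3 and 159, 133 and 159 FPKM in vehicle replicates 1, 2 and 3. Its groups overlapped because C13 replicate 1 lay above vehicle replicate 2. The change was -0.20 (SE 0.101, limma adjusted p = 0.740), and -0.29 (SE 0.057, adjusted p = 0.0674) without vehicle replicate 2. Parp11 had 42.6, 41.8 and 42.2 FPKM in C13 replicates 1, 2 and 3 and 50.8, 37.2 and 49.96 FPKM in vehicle replicates 1, 2 and 3. The C13 libraries agreed to within a CV of 0.902%, and again sat between vehicle replicate 2 and the other 2. Its change was -0.11 (SE 0.127, limma adjusted p = 0.838), and -0.25 (SE 0.046, adjusted p = 0.0554) without vehicle replicate 2, the smallest adjusted p of any member under the alternatives run.

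Parp1 had 11.9, 12.2 and 12.6 FPKM in C13 replicates 1, 2 and 3 and 11.7, 12.6 and 11.4 FPKM in vehicle replicates 1, 2 and 3. The groups overlapped, and the change was 0.041 (SE 0.085, limma adjusted p = 0.903), or 0.081 (adjusted p = 0.577) without vehicle replicate 2. The log2 ratio of each other member to Parp1 in the same library tested whether C13 moved that member differently from Parp1, free of the library's scaling. For Parp9 the log2 ratio was 3.27, 3.08 and 3.10 with C13 and 3.42, 3.27 and 3.44 with vehicle, a difference of -0.23. For Parp10 it was 2.35, 2.33 and 2.33 with C13 and 2.48, 2.73 and 2.58 with vehicle, a difference of -0.26. Both had the smallest p that an exact two-sided permutation test can give with 3 against 3 (0.1), and 0.3 after Benjamini-Hochberg adjustment over the 6 ratios. The differences for Parp12, Parp11, Dtx3l and Parp14 were -0.25, -0.16, -0.12 and -0.053, with exact p of 0.2, 0.4, 0.8 and 0.8. Without vehicle replicate 2 the differences were -0.38 for Parp12, -0.34 for Parp11, -0.38 for Dtx3l, -0.30 for Parp14, -0.28 for Parp9 and -0.19 for Parp10. All 6 ratios share Parp1, whose own change of 0.081 then enters each of them, so the differences are not independent of one another.

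The order of the levels was alike across libraries. Parp14, Parp12 and Parp9 led in all 6 libraries, Dtx3l and Parp10 followed, and Parp11 and Parp1 came last. Parp12 stood above Parp14 in vehicle replicate 2 alone, and Parp10 above Dtx3l in C13 replicate 2 and vehicle replicate 2. Dtx3l and Parp10 were thus neighbours that the spread did not separate, at 63.4 ± 2.95 and 61.9 ± 1.17 FPKM with C13 and at 68.2 ± 15.8 and 72.2 ± 9.90 FPKM with vehicle. Parp14 and Parp12 overlapped in the vehicle libraries, where they had 166 ± 38.2 and 150.3 ± 14.7 FPKM, and not in the C13 libraries, where they had 144 to 180.4 and 122 to 137 FPKM.

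Vehicle replicate 2 differed from the other vehicle libraries with transcript length over the whole table. Its log2 ratio to the mean of vehicle replicates 1 and 3 had a median of 0.52 in 511 tested genes with a longest transcript under 1000 nt, 0.084 in the 4517 genes of 2000 to 4000 nt, and -0.57 in the 569 genes of 8000 nt and over. Between vehicle replicates 1 and 3 the medians of the same length classes were between -0.027 and 0.037. These medians were taken with 1 FPKM added to every value, whereas the members' ratios that follow are of plain FPKM. The 2 members with the longest transcripts had the lowest ratios, Parp14 (7417 nt) at -0.62 and Dtx3l (5309 nt) at -0.63. The other 5, whose transcripts are of 3231 to 3873 nt, were spread between -0.44 for Parp11 and 0.33 for Parp10, with Parp9 at -0.029, so length did not order them. Between vehicle replicates 1 and 3 the members differed by -0.071 to 0.057. With a trend on length removed from every library, an alternative chosen after the data were seen, the changes of Parp14 and Dtx3l were -0.12 and -0.14 and those of Parp9, Parp10, Parp12 and Parp11 were -0.18, -0.20, -0.19 and -0.11, with limma adjusted p between 0.366 and 0.763.

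**Figure D2:**
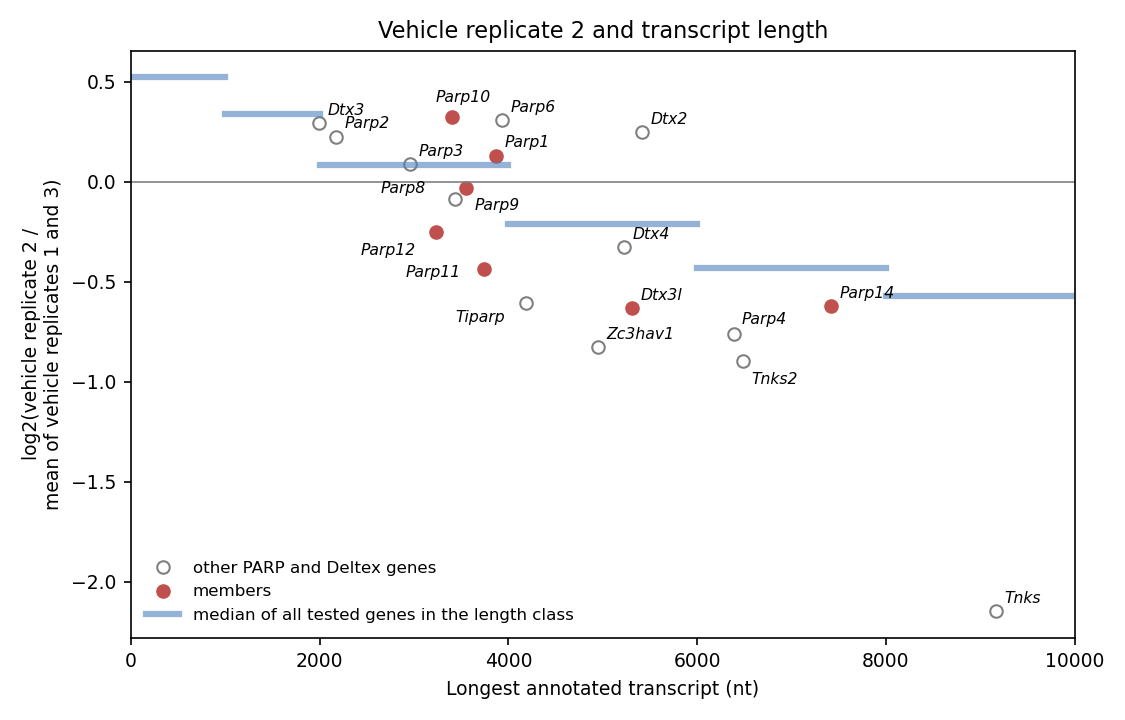
Log2 ratio of vehicle replicate 2 to the mean of vehicle replicates 1 and 3 (vertical axis) against the longest annotated transcript in nt (horizontal axis) for the members (filled) and the other tested PARP and Deltex genes (open), with bars for the median of all tested genes in 6 length classes. The points are ratios of plain FPKM, and the bars were computed with 1 FPKM added to every value. Parp14 and Dtx3l lie near -0.6, Parp9 near 0 and Parp10 at 0.33, while the bars descend from 0.52 to -0.57.

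Without vehicle replicate 2 the C13 libraries lay below both remaining vehicle libraries in 6 of the 7 genes, every member but Parp1, against 20.5% of all genes tested, and above them in Parp1, against 15.3%. The change lay below 0 in the same 6 genes, against 51.3% of all genes tested. Of the 7 genes 4 (Parp9, Parp11, Parp12 and Dtx3l) then had an unadjusted p under 0.05 on the lower side, against 10.6% of all genes tested, and 0 did on the higher side, against 6.23%. Across all genes 122 passed on the lower side (1.07%) and 47 on the higher side (0.412%), and 0 of the 7 were among them. With that library out, the only vehicle values left are those of replicates 1 and 3, which lay close together in all 7 genes.

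**Figure D3:**
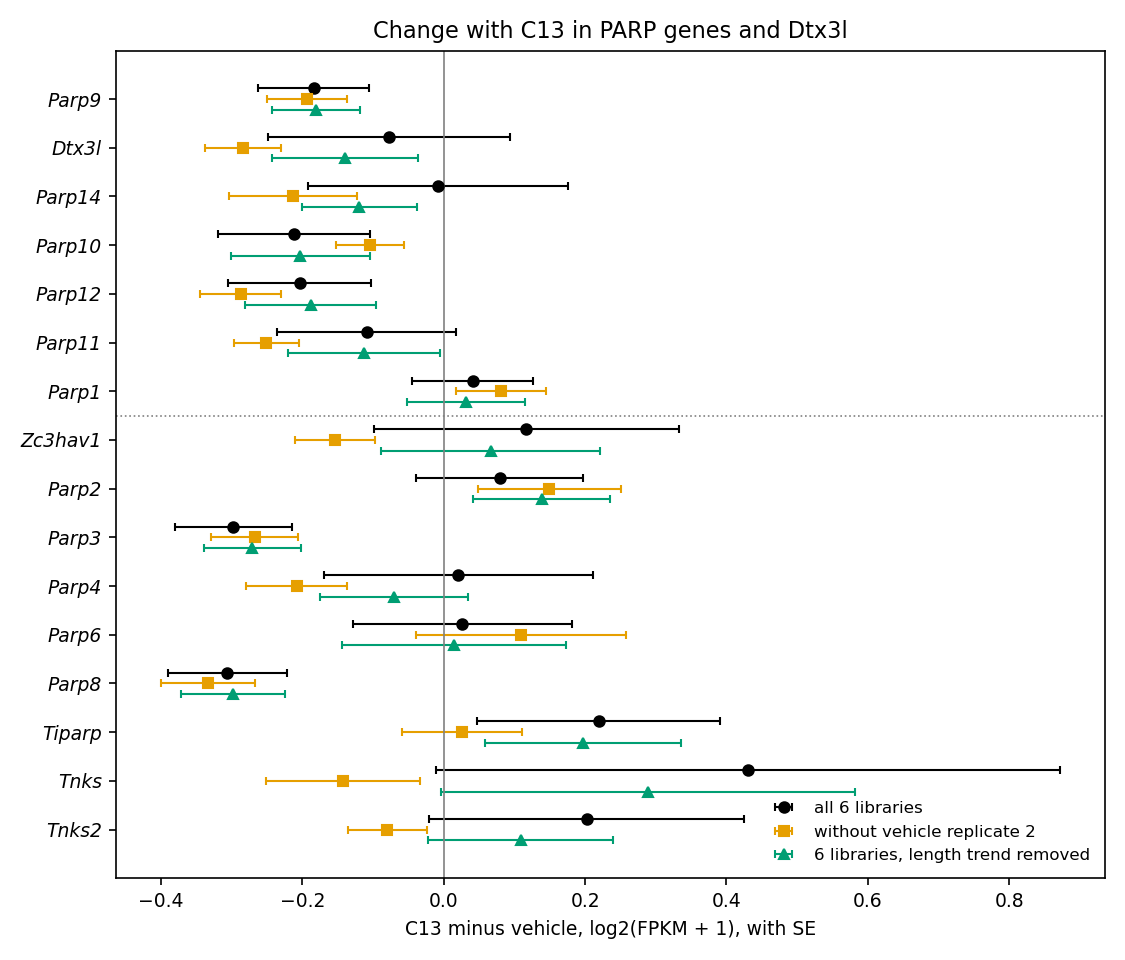
Change with C13 minus vehicle in log2(FPKM + 1), with its SE, for the 7 members (above the dotted line) and 9 other tested PARP genes, with all 6 libraries, without vehicle replicate 2 and with a transcript length trend removed. Parp14 lies at -0.0081 with all 6 libraries and at -0.21 without vehicle replicate 2, while Parp3 and Parp8 differ little between the settings. Rescaling to TPM, not drawn, puts Parp11, Parp14 and Dtx3l above 0 and the median of all genes at 0.13.

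Within the C13 group, replicate 2 had the lowest level of Parp9, Dtx3l, Parp14, Parp12 and Parp11. The same library had the highest sum of the 7 astrocyte markers, 63.0 FPKM against 16.6 and 21.5 FPKM in C13 replicates 1 and 3 and 11.9 to 15.2 FPKM in the vehicle libraries. Of the fibroblast markers, Dcn, Lum, Col3a1 and Col1a2 were also highest within the C13 group in replicate 2. Dcn was at 165 FPKM against 80.0 and 104 FPKM in C13 replicates 1 and 3. Col1a1 was not, at 1874 FPKM against 1773 and 1880 FPKM, and vehicle replicate 3 had more Col1a1 and Col1a2 (2004 and 1318 FPKM). The fibroblast sum in C13 replicate 2 was 4248 FPKM, against 3909 to 4210 FPKM in the vehicle libraries. Without C13 replicate 2 the changes were -0.15 for Parp9, -0.21 for Parp10, -0.16 for Parp12, -0.10 for Parp11, -0.043 for Dtx3l and 0.080 for Parp14, with limma adjusted p of 0.930 to 0.975. The part of these marker levels in the result was not tested.

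Among the 10 other PARP genes, 9 were tested, since Parp16 was at 0.669 ± 0.028 FPKM with C13 and 0.425 ± 0.310 FPKM with vehicle. With all 6 libraries 2 lay below 0 and 7 above (median 0.079), 0 passed, and without vehicle replicate 2 6 lay below 0 (median -0.14) and 0 passed. The 2 below 0, whose unadjusted p was the smallest of any PARP gene, are not among the interferon-induced members. Parp3, a mono-ADP-ribosyltransferase of DNA break repair, had 68.1, 62.5 and 68.2 FPKM in C13 replicates 1, 2 and 3, against 76.7, 85.1 and 83.2 FPKM in vehicle replicates 1, 2 and 3 (change of -0.30, SE 0.083, limma adjusted p = 0.467). Parp8, a little-studied relative, had 29.9, 28.5 and 27.5 FPKM with C13, against 34.5, 34.3 and 38.3 FPKM with vehicle (change of -0.31, SE 0.084, adjusted p = 0.456). In both genes every C13 library lay below every vehicle library, vehicle replicate 2 included.

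Zc3hav1 encodes the zinc-finger antiviral protein, also called PARP13, an enzymatically inactive relative that interferon induces and that binds CpG-rich viral RNA. It is not counted among the interferon-induced members here. It had 87.7, 79.0 and 85.9 FPKM in C13 replicates 1, 2 and 3 and 93.5, 52.9 and 93.9 FPKM in vehicle replicates 1, 2 and 3, the arrangement seen in Dtx3l and Parp14. Its change was 0.12 (limma adjusted p = 0.890), and -0.15 (adjusted p = 0.232) without vehicle replicate 2. Tiparp, a mono-ADP-ribosyltransferase induced by the aryl hydrocarbon receptor, had 33.2 ± 2.54 FPKM with C13 and 28.9 ± 6.82 FPKM with vehicle (change of 0.22, adjusted p = 0.821, and 0.026 without vehicle replicate 2). The tankyrase genes Tnks and Tnks2 had 8.06 ± 1.08 and 21.7 ± 0.356 FPKM with C13 and 6.64 ± 4.004 and 19.5 ± 6.18 FPKM with vehicle, and their changes of 0.43 and 0.20 were -0.14 and -0.080 without vehicle replicate 2. Parp2, which works beside PARP1 at DNA breaks, had 11.1 ± 0.909 FPKM with C13 and 10.5 ± 1.34 FPKM with vehicle. Parp4, the PARP of vault particles, had 10.4 ± 0.555 FPKM with C13 and 10.5 ± 2.89 FPKM with vehicle, and Parp6 had 4.07 ± 0.854 FPKM with C13 and 3.95 ± 0.507 FPKM with vehicle. The changes of Parp2, Parp4 and Parp6 were 0.079, 0.021 and 0.026, and without vehicle replicate 2 they were 0.15, -0.21 and 0.11.

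Genes around the members were described by list. Of the other 4 Deltex genes, relatives of Dtx3l, 3 were tested and 0 passed. Dtx2 had 10.6 ± 1.02 FPKM with C13 and 10.8 ± 1.25 FPKM with vehicle. Dtx3 had 14.3 ± 2.48 FPKM with C13 and 13.4 ± 1.64 FPKM with vehicle, and Dtx4 had 2.92 ± 0.446 FPKM with C13 and 2.22 ± 0.296 FPKM with vehicle. The changes of Dtx2, Dtx3 and Dtx4 were -0.028, 0.074 and 0.28, and without vehicle replicate 2 they were 0.048, 0.17 and 0.21. Of 15 genes that remove or read ADP-ribose 13 were tested, 7 lay below 0, 0 passed, and the median was -0.015. The lowest p was that of H2afy, which encodes a macroH2A histone with a macrodomain, at 48.7 ± 1.07 FPKM with C13 and 55.8 ± 2.54 FPKM with vehicle (change of -0.19, limma adjusted p = 0.635). Adprh, an ADP-ribosyl hydrolase, had a change of -0.13 (-0.055 without vehicle replicate 2), Oard1, which removes terminal ADP-ribose, one of 0.19, and the remodeller gene Chd1l one of 0.16.

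Of 11 genes of single-strand break repair, the setting in which PARP1 acts, all were tested, 9 lay below 0, 0 passed, and the median was -0.038. Without vehicle replicate 2 5 lay below 0 and the median was 0.024. The DNA polymerase gene Polb had a change of -0.17, Pcna one of -0.12, Aptx one of -0.13, and 2700029M09Rik, the older name under which the table lists the PARP1 cofactor gene Hpf1, one of -0.058. Without vehicle replicate 2 these were -0.11, -0.069, -0.061 and -0.031. Of 23 genes that make or use NAD, the substrate of the family, 17 were tested, 10 lay below 0, 0 passed, and the median was -0.021, whereas without vehicle replicate 2 8 lay below 0 and the median was 0.021. Cd38, which encodes an NAD-consuming ectoenzyme, had 26.9 ± 0.829 FPKM with C13 and 22.0 ± 4.98 FPKM with vehicle (change of 0.30, limma adjusted p = 0.752, and 0.15 without vehicle replicate 2). The kynurenine pathway genes Kynu and Ido2 had changes of -0.57 and -0.26 at 1.65 and 2.38 FPKM with C13 and 2.92 and 3.04 FPKM with vehicle, and the nicotinamide riboside kinase gene Nmrk1 one of 0.27.

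Genes that carry the interferon signal, or answer to it as the members do, were set beside them. Of 16 interferon signalling genes 13 lay below 0 (median -0.083), against 50.1% of all genes tested, and 0 passed with all 6 libraries. Without vehicle replicate 2 12 lay below 0 (median -0.15), against 51.3% of all genes tested, and 1, Usp18, passed on the lower side. Usp18, which removes ISG15 and dampens receptor signalling, had 506 ± 34.9 FPKM with C13 and 703 ± 48.5 FPKM with vehicle (change of -0.47, limma adjusted p = 0.316, and 0.0345 without vehicle replicate 2). The interferon regulatory factor genes Irf1 and Irf7 had 112 ± 4.21 and 401 ± 17.0 FPKM with C13 and 136 ± 9.86 and 524 ± 93.1 FPKM with vehicle, and the feedback inhibitor gene Socs1 had 59.1 ± 3.63 FPKM with C13 and 77.5 ± 11.97 FPKM with vehicle. The change of Irf7 was -0.37, and -0.23 without vehicle replicate 2.

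Of 36 other interferon-stimulated genes 34 lay below 0, with a median of -0.27, and the groups did not overlap, lower with C13, in 20, against 9.78% of all genes tested. With all 6 libraries 0 of the 36 passed, and without vehicle replicate 2 11 passed, all on the lower side, against 1.07% of all genes tested, with 36 below 0 and a median of -0.30. The lists were drawn up with earlier results of these data known, so such counts describe them and do not test them. The 6 interferon-induced members had a median of -0.15 with all 6 libraries, of -0.23 without vehicle replicate 2 and of -0.16 with the length trend removed, beside -0.00028, -0.0048 and 0.0041 for all genes tested. The 4 interferon-stimulated genes with the smallest p were Mx2, Mx1, Gbp2 and Oas1a, which belong to GTPase and oligoadenylate synthetase gene families. Mx1 had 262 ± 8.05 FPKM with C13 and 364 ± 10.3 FPKM with vehicle, a change of -0.47 against -0.18 for Parp9, and its limma adjusted p was 0.196. Mx2, Gbp2 and Oas1a had changes of -0.53, -0.48 and -0.51 (adjusted p = 0.196, 0.316 and 0.365). These 4 genes were picked by their p, so their changes do not stand for the list. Its median was -0.27, or -0.24 with the length trend removed. Whether the members changed less than the other interferon-stimulated genes was not tested.

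**Figure D4:**
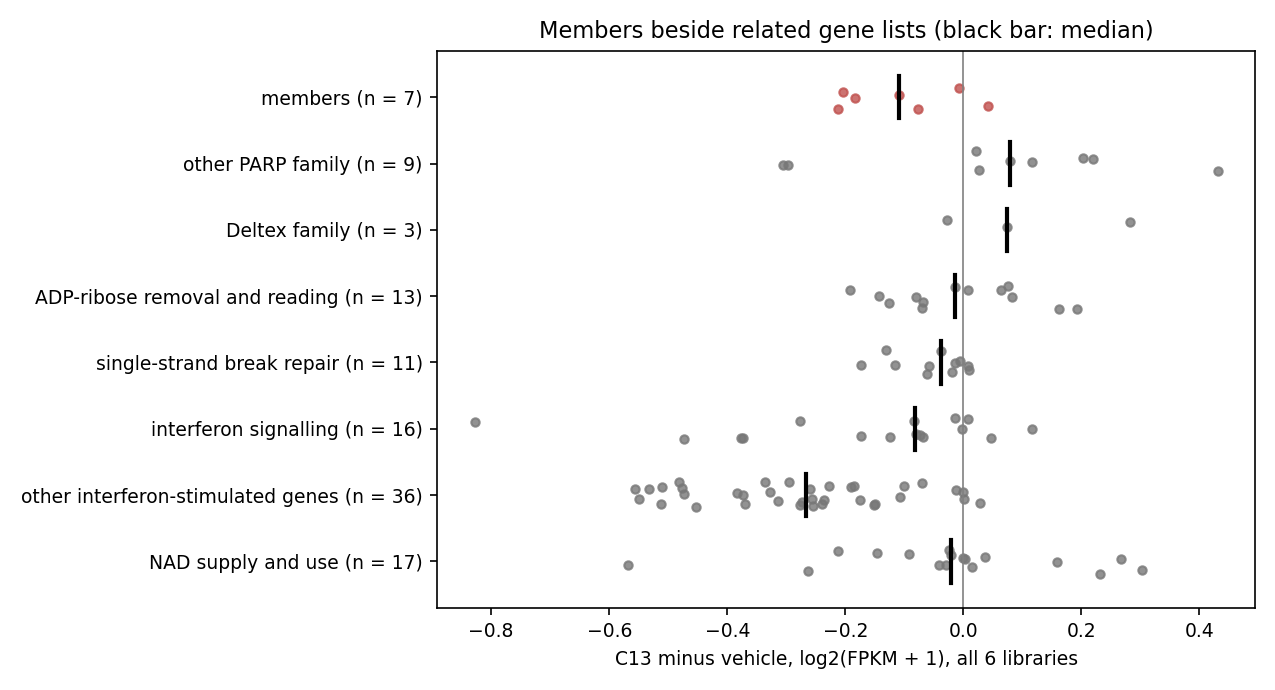
Change with C13 minus vehicle in log2(FPKM + 1) with all 6 libraries (horizontal axis), 1 point for each tested gene, in the members and in 7 related lists, with a bar at each list's median. The members' median is -0.11 with Parp1 included, and that of the other interferon-stimulated genes -0.27. Rescaling to TPM, not drawn, puts Parp11, Parp14 and Dtx3l above 0 and the median of all genes at 0.13.

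The mean centred pattern of the 6 interferon-induced members was -0.0050, -0.14 and -0.055 in C13 replicates 1, 2 and 3 and 0.16, -0.11 and 0.15 in vehicle replicates 1, 2 and 3. The genes outside the members whose log2(FPKM + 1) followed it most closely over the 6 libraries were Snx30, Hmga2, Irf2, Ltbp2 and Mat2a, with Pearson correlations of 0.995, 0.994, 0.994, 0.991 and 0.991, and 98 genes had an r above 0.95. Over 6 libraries that share 1 outlying library such values are a description. Irf2, which encodes an interferon regulatory factor, had 52.0, 47.5 and 51.2 FPKM with C13 and 57.4, 48.7 and 58.1 FPKM with vehicle. Of the members themselves Parp12 was closest to the mean pattern (r = 0.972) and Parp10 farthest from it (r = -0.15). Each member is part of that mean, which raises its r, so these values do not compare with those of genes outside.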

How the data were processed

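RNA of 6 libraries was compared, 3 with C13 and LPS and 3 with vehicle and LPS, grouped by the sample titles. Per the labels' protocols, mRNA was selected by its poly-A tail and prepared with a kit that keeps strand. The submitters' processing notes name TopHat2 2.1.0, Cufflinks and mm10. Not given in the sources used here are the gene annotation, which Cufflinks version was run and whether it used strand. The authors deposited 1 FPKM value per gene and library, with 0.01 as the lowest value. Because FPKM is scaled by library and by the transcript length assumed, a gene's change depends on the rest of its library.

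Values were transformed to log2(FPKM + 1), genes averaging 1 FPKM or more across all 6 libraries were tested (11412 of 24340), and C13 was compared with vehicle by limma 3.58.1 in R 4.3.3 (two-sided, intensity trend), with Benjamini-Hochberg adjustment over the 11412 genes and a threshold of 0.05. On this scale weakly expressed genes appear to change less than they do. FPKM values are not counts, so no count test was run. Ratios to Parp1 were tested by exact permutation (scipy 1.17.1). The members and lists were chosen with earlier results of these data known. From each list of over 10 genes the 4 with the smallest p are named, from shorter lists all that were tested, and 5 genes by likeness of pattern. Gene positions and transcript lengths are those of GENCODE vM21, matched by symbol for 96.2% of the genes tested. Alternatives tried were other pseudocounts, filters, scalings and limma options, a replicate block, leaving out each library and removal of a length trend.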

Additional observations from a re-analysis of the deposited data

How the results depend on the processing

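The changes of Parp9, Parp10, Parp12 and Parp1 kept their direction under all 19 alternatives run, between -0.23 and -0.050, -0.28 and -0.078, -0.33 and -0.069, and 0.013 and 0.17. No member passed the threshold under any of them, and the smallest adjusted p was 0.0554, for Parp11 without vehicle replicate 2. Rescaling to TPM moved the median of all genes by 0.13, and with it these changes turned above 0, namely Parp11 (0.024), Parp14 (0.13), Dtx3l (0.057), Dtx2 (0.10), Adprh (0.0083), Pcna (0.020), 2700029M09Rik (0.072), Irf2 (0.015), Ltbp2 (0.044) and Mat2a (0.054). Relative to that shift Parp11, Parp14 and Dtx3l lay at -0.10, 0.0014 and -0.069. Quantile normalization gave 0.12 for Parp14, 0.0035 for Dtx3l, 0.0075 for Pcna, 0.031 for Ltbp2, -0.0074 for Parp4 and -0.041 for Parp6, and median centring gave 0.0039 for Parp14. Array weights, whose estimation stopped before its convergence tolerance, gave -0.097 for Zc3hav1, -0.16 for Parp4, -0.013 for Tnks, -0.047 for Tnks2 and 0.089 for Dtx2, and removal of the length trend gave -0.070 for Parp4. In these cases the cause was not tested.

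Leaving out 1 library gave 0 to 122 genes past the threshold on the lower side and 0 to 47 on the higher side, the highest counts without vehicle replicate 2. It moved Parp14 between -0.21 and 0.11, Dtx3l between -0.28 and 0.028, Parp11 between -0.25 and -0.032, Zc3hav1 between -0.15 and 0.25, Parp2 between -0.017 and 0.15, Parp4 between -0.21 and 0.15, Parp6 between -0.057 and 0.17, Tnks between -0.14 and 0.73, Tnks2 between -0.080 and 0.36, Dtx2 between -0.10 and 0.048, Dtx3 between -0.019 and 0.21 and 2700029M09Rik between -0.13 and 0.0089. Dtx3l lay above 0 without vehicle replicate 1 (0.028) or 3 (0.025), and Parp14 without vehicle replicate 1 (0.11), vehicle replicate 3 (0.080) or C13 replicate 2 (0.080). The difference in log2 ratio to Parp1 lay between -0.30 and 0.078 for Parp14 and between -0.38 and 0.012 for Dtx3l.

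Over all genes tested, the counts past the threshold were 1 lower and 11 higher with no filter, 24 and 18 with array weights, and 6 and 7 with the length trend removed. They were 7 higher with quantile normalization, 2 higher with rescaling to TPM and 1 higher without the intensity trend, each with 0 lower.

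The title replicate numbers gave deviations of same-numbered libraries with correlations of 0.089, 0.13 and 0.098, each the highest for its libraries. Pairs with unlike title numbers had correlations of -0.105 to 0.027. Because the labels do not say what these numbers mark, the main test left the samples unpaired and the block was run as an alternative. The descriptions number the same libraries differently (2, 3 and 5 with C13, and 3, 4 and 5 with vehicle), and whether either number marks a shared culture is not given in the sources used here. With the replicate block by title number 0 genes were called in either direction, as without it, and Parp9 had an adjusted p of 0.739. With the replicate block by description number, which leaves 4 libraries, 3 genes were lower and 5 higher, no member among them, with Parp12 at -0.33, Dtx3l at -0.32, Parp14 at -0.29, Parp11 at -0.26 and Parp9 at -0.23, and with Zc3hav1 at -0.18, Parp4 at -0.25, Tnks at -0.20, Tnks2 at -0.076 and Dtx2 at 0.060. At the estimated depths a gene of 1 FPKM rests on few fragments, which limits Kynu, Ido2 and Nmrk1 more than the members.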
